A study of Mus musculus with 6 samples.

Results

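The 8 genes *Akt1*, *Akt2*, *Mtor*, *Rptor*, *Rictor*, *Tsc1*, *Tsc2* and *Rheb*, which encode core proteins of the PI3K, AKT and mTOR pathway, were examined in RNA-Seq libraries of mouse sciatic nerve. They were chosen by symbol as known components of the pathway, with earlier results of these data known, and were 8 of the 24015 genes in the count tables. All 8 had reads in each of the 6 libraries and passed the filter on low counts, which kept 11371 genes. The surrounding pathway was represented by 11 lists written by role, which held 139 different genes including the 8, and 127 of these passed the filter.

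The libraries had been prepared to compare nerves with and without *Rnf40* in Schwann cells, the glia that myelinate peripheral axons. Rnf40 is the partner of Rnf20 in the E3 ligase that attaches a single ubiquitin to histone H2B. The 3 control libraries (ctrl) came from Rnf40 fl/fl mice, which carry floxed alleles without Cre, and the 3 cko libraries from mice of the genotype Dhh::Cre, Rnf40 fl/fl, in which a Cre transgene under *Dhh* control deletes *Rnf40* in developing Schwann cells. Each library came from a pool of 3 nerves taken at postnatal day 14 and therefore represents the whole nerve, including vascular and immune cells without Cre. The labels of all 6 libraries name a mixed 129SvJ/C57Bl/6J background, the methods C3H × C57Bl/6J. The labels call the libraries of a genotype biological replicates, and p-values measure the spread between these pools.

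The control libraries held 1317167 (replicate 1), 1992622 (replicate 2) and 2468765 (replicate 3) gene-assigned reads, the cko libraries 2184268, 1459387 and 2186710 in the same order. The smallest count of any of the 8 genes was 37 reads, for *Rictor* in control replicate 1. Counts are given after TMM scaling to a common library size (normalized counts). Levels of different genes are compared only as RPKM, read density per kilobase of annotated exon scaled by library size. Fold changes are log2 values of cko over control with their standard error (SE) and with p-values adjusted over all 11371 genes (edgeR's quasi-likelihood test, Benjamini-Hochberg adjustment). The data describe transcripts and hold no measure of phosphorylation or kinase activity.

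Growth factor receptors recruit PI3K, whose lipid product at the plasma membrane brings AKT to its activating kinases PDK1 and mTOR complex 2 (mTORC2). AKT phosphorylates Tsc2, which together with Tsc1 keeps the small GTPase Rheb inactive, and GTP-bound Rheb at the lysosome switches on mTOR complex 1 (mTORC1), which drives protein and lipid synthesis and holds back autophagy. In Schwann cells the pathway lies downstream of the axonal growth factor neuregulin. Its high activity before myelination holds cells back from differentiating, and mTORC1 is later needed for the growth of the myelin sheath.

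Among the 8 genes, *Akt1* was lower and *Rictor* was higher in cko nerves. *Akt1* fell to 0.623-fold of control (95% confidence interval 0.520 to 0.746, n = 3 libraries each, edgeR adjusted p = 1.00e-04), and *Rictor* rose 1.36-fold (1.07 to 1.73, n = 3 each, edgeR adjusted p = 0.0456). The remaining 6 genes did not pass an adjusted p of 0.05, with log2 fold changes from -0.25 for *Tsc2* to 0.24 for *Tsc1*. The 2 called genes were 25% of the 8, whereas 31.6% of all genes tested were called at this limit, 15.4% higher and 16.2% lower. With the further limits of an absolute log2 fold change of 0.8 and a base mean, the average normalized count, of 20, none of the 8 genes was called by edgeR against 8.64% of all genes, while 3 of them, *Akt1*, *Rictor* and *Tsc2*, had an unadjusted p under 0.05 and DESeq2 called *Akt1* alone at an adjusted p of 0.05. Their median log2 fold change was -0.093, beside -0.0026 for all genes tested. Libraries of the 2 genotypes did not overlap for *Akt1*, *Rptor* and *Rictor*, 1 gene with cko above and 2 with cko below. Of all 11371 genes, cko libraries lay above all controls for 2497 and below them for 2451.

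**Figure D1:**
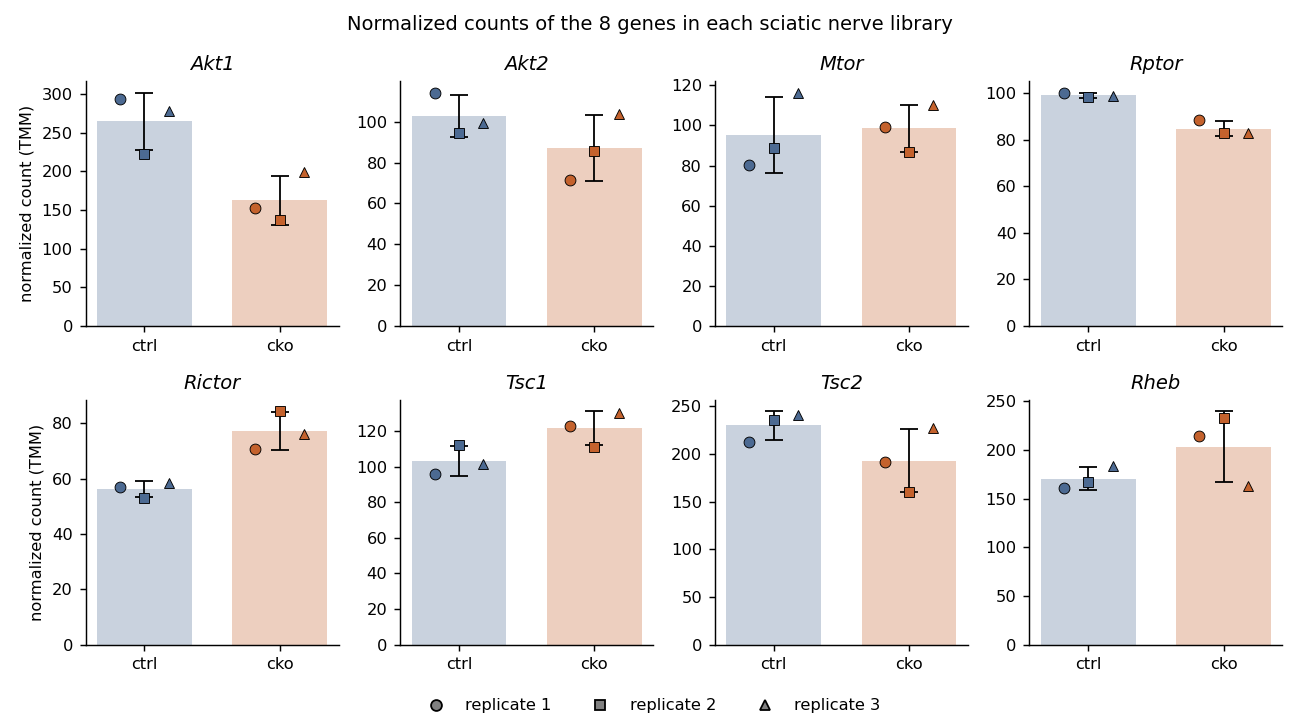
Normalized counts (vertical axis, TMM scale) of the 8 genes in control (ctrl, blue) and cko (orange) libraries; bars give the mean of 3 libraries, error bars the SD and symbols the replicate number of each library. *Akt1* ranged from 222 to 293 in control and from 137 to 199 in cko libraries, and *Rictor* from 53.0 to 58.6 and from 70.8 to 84.3.

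The targeted gene had 127, 123 and 138 normalized counts of *Rnf40* in control replicates 1, 2 and 3 and 87.7, 87.9 and 91.5 in cko replicates. All 3 cko libraries lay below all control libraries, in the direction of the deletion (log2 fold change -0.54, SE 0.14, adjusted p = 0.00242, edgeR). Counts cover the whole gene, so that reads from exons outside the deleted part and from cells without Cre are included. *Rnf20* was higher in cko nerves (log2 fold change 0.44, SE 0.13, adjusted p = 0.00998, edgeR). The fall of *Rnf40* did not pass the test with total-count scaling (-0.27, adjusted p = 0.120, range over all alternatives 0.00235 to 0.120), and the rise of *Rnf20* did not pass it with the muscle covariate described below (0.22) or without control replicate 3 (0.37) or cko replicate 1 (0.40).

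Cells other than Schwann cells contributed to each library, and their markers differed between the genotypes. Of the Schwann cell lineage, *Sox10*, *S100b*, *Erbb3* and *Cdh19* were lower in cko nerves and *Foxd3* was higher. Genes named here and below outside the naming rule set in advance were chosen after their values were seen. In such bulk RNA, fewer cells of a type and less RNA per cell cannot be told apart. By the paper's cell counts on nerve sections of this age, the share of Sox10-positive Schwann cells was comparable in both genotypes. The share of Iba1-positive macrophages was higher in the mutant nerves. Lower calls also made up 6 of 8 endothelial markers, 7 of 8 fibroblast and perineurial, 7 of 8 macrophage, 3 of 7 adipocyte and 4 of 8 pericyte and smooth muscle markers, with no higher call in these lists. *Cdh5*, *Col3a1*, *Csf1r*, *Fabp4* and *Acta2* had the most reads in these lists, in that order and without regard to transcript length, and no gene of any list was without reads. Summed levels in control and cko replicates 1, 2 and 3 were 749, 666 and 757 and 473, 476 and 573 CPM (library-scaled reads, after TMM) for endothelium, 54632, 53358 and 57842 and 40624, 38929.7 and 38492 CPM for fibroblasts and perineurium, and 459, 423 and 464 and 311, 307 and 312 CPM for macrophages. For adipocytes they were 1186, 876 and 1503 and 936, 860.0 and 682 CPM, and for pericytes and smooth muscle 924, 601 and 719.5 and 465, 422 and 619 CPM. The part of these cell types in the changes described here was not tested.

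Skeletal muscle transcripts set cko replicate 3 apart. The 15 muscle markers summed to 4975, 3824 and 2827 CPM in control replicates 1, 2 and 3 but to 103, 266 and 3491 CPM in cko replicates 1, 2 and 3. *Myh4*, a fast myosin heavy chain and the one with the most reads, had 1409, 936 and 701 and 24.9, 28.7 and 609.5 CPM. Muscle RNA was thus at a similar level in cko replicate 3 and the controls and low in the other 2 cko libraries, and none of the 14 muscle markers tested was called by edgeR between the genotypes. For this reason the tests were repeated with the summed muscle level as a covariate, an alternative chosen after seeing the data. Of 36 pathway genes called by edgeR, 16 lost their call with it, namely *Eef2k*, *Foxo4*, *Gab2*, *Grb2*, *Gsk3a*, *Mapkap1*, *Pdgfra*, *Phlpp1*, *Pik3ca*, *Pik3r1*, *Rictor*, *Sesn1*, *Sesn3*, *Tbc1d1*, *Tbc1d7* and *Tti1*, and the cause was not tested. The log2 fold change of *Rictor* did not shrink with the covariate, whereas that of *Sesn3* shrank from 1.29 to 0.40. For *Phlpp1*, *Tti1* and *Tbc1d1* the lowest values under any alternative were 0.43, 0.47 and 0.46. Without an alternative they were 0.51, 0.55 and 0.60.

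At the level of receptors and adaptors that feed PI3K, 5 of 13 genes were lower and 1 was higher in cko nerves, with a median log2 fold change of -0.15 (4 lower and 3 higher after total-count scaling). The counts of this and each list below stand beside 15.4% higher and 16.2% lower among all genes tested. After total-count scaling, 3766 of all 11371 genes were higher and 880 lower. *Erbb3*, the neuregulin receptor subunit with docking sites for PI3K, had 284, 324 and 315 normalized counts in control and 188, 192 and 230.4 in cko libraries (log2 fold change -0.60, SE 0.11, adjusted p = 3.07e-05, edgeR). Its partner *Erbb2* (log2 fold change -0.038, adjusted p = 0.820) and the growth factor receptor *Igf1r* (log2 fold change -0.15, adjusted p = 0.453) did not pass the test, with log2 fold changes of -0.10 to 0.019 and -0.23 to -0.065 when 1 library was left out. The other lower genes were the PDGF receptors *Pdgfrb* (log2 fold change -0.65, adjusted p = 3.39e-06) and *Pdgfra* (log2 fold change -0.27, adjusted p = 0.0289), the docking protein *Gab2* (log2 fold change -0.74, adjusted p = 0.00258) and *Grb10* (log2 fold change -0.58, adjusted p = 6.22e-06), an adaptor that dampens insulin and IGF receptor signalling. *Grb2*, the adaptor that links receptors to Ras and to Gab proteins, was higher (log2 fold change 0.41, adjusted p = 0.0213). *Erbb3*, *Pdgfrb* and *Grb10* were called in each of 13 alternatives, whereas *Gab2* was called in 12, *Pdgfra* in 6 and *Grb2* in 7 of them. After total-count scaling the log2 fold change of *Pdgfra* was -0.0026, and with the muscle covariate that of *Grb2* was 0.26, both without a call. The call of *Gab2* was lost with the muscle covariate (-0.60). *Erbb3* also counts among the Schwann cell markers and *Pdgfra* among those of fibroblasts. 

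Of the PI3K subunits, 11 of 14 were tested, 1 was higher, 1 was lower and the median log2 fold change was 0.11 (4 higher and 0 lower after total-count scaling). *Pik3ca*, the class IA catalytic subunit alpha, had 164, 176 and 207 normalized counts in control replicates 1, 2 and 3 and 235, 237 and 223 in cko replicates. All cko libraries lay above all control libraries by a small margin (log2 fold change 0.33, SE 0.11, adjusted p = 0.0210, edgeR), and the call was lost in 5 of 13 alternatives, without control replicate 1 (0.26), control replicate 2 (0.30) or cko replicate 1 (0.33), with DESeq2 and with the muscle covariate. *Pik3r1*, the main regulatory subunit, which stabilizes the catalytic subunits, was lower (log2 fold change -0.32, adjusted p = 0.0409), with overlapping libraries and a call kept in 6 of 13 alternatives. Its log2 fold change was -0.047 after total-count scaling and -0.19 without control replicate 2, where the call was lost. The other catalytic subunits did not pass the test, with log2 fold changes of -0.75 for *Pik3cb*, -0.24 for *Pik3cd*, -0.65 for *Pik3cg*, 0.20 for *Pik3c2a*, 0.11 for *Pik3c2b* and 0.39 for *Pik3c3*. Leaving out 1 library moved them to between -0.998 and -0.48 for *Pik3cb*, -0.45 and -0.057 for *Pik3cd*, -1.10 and -0.30 for *Pik3cg*, 0.13 and 0.26 for *Pik3c2a*, -0.0014 and 0.24 for *Pik3c2b* and 0.31 and 0.50 for *Pik3c3*. Calls were gained by *Pik3c2a* after total-count scaling (0.47) and by *Pik3c3* after total-count scaling (0.66) and without cko replicate 2 (0.50). *Pik3cb* and *Pik3cg* rested on 15.5 and 10.4 normalized counts on average, and *Pik3c2g* had 1 read in all 6 libraries together. Per exon length, *Pik3ca* made up 65.6% ± 3.82 (SD, n = 3) of the class IA catalytic transcripts in control and 76.4% ± 2.13 (SD, n = 3) in cko nerves.

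Of 9 genes tested among phosphatases that oppose PI3K and AKT, 2 were higher and 0 lower, a share of 22.2% beside 31.6% of all genes tested. Their median log2 fold change was 0.21. After total-count scaling 5 were higher and 0 lower, with 3766 of all 11371 genes higher under that scaling. *Ppp2r2a*, a regulatory subunit that directs protein phosphatase 2A to AKT, was higher (log2 fold change 0.57, adjusted p = 1.72e-04) under all 13 alternatives, and *Phlpp1*, which dephosphorylates AKT, was higher (log2 fold change 0.51, adjusted p = 0.0110) in 10 of 13, losing its call without control replicate 2 among others.

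*Akt1* encodes the AKT kinase that most tissues use for growth and survival signals, and had the largest absolute log2 fold change of the 8 genes with TMM scaling. After total-count scaling and with the muscle covariate that of *Rictor* was larger. The 250 bases before each of its 2 annotated starts were taken from RefSeq (GRCm38.p6, minus strand) because this gene had the clearest difference, and capitals mark the motifs found. Searched on both strands were the E-box CACGTG, the GC box GGGCGG, the FOXO motif TGTTTAC and the EGR motif GCGTGGGCG, which occur in 6.02%, 32.7%, 3.17% and 0.536% of the 32851 mouse promoter windows of this length.
Akt1 start 1, chr12:112674885-112675134: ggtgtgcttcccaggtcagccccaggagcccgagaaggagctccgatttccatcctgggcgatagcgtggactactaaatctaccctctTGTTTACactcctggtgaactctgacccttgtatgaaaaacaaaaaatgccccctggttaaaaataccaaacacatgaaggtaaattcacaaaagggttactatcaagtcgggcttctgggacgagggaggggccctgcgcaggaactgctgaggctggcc
Akt1 start 2, chr12:112674277-112674526: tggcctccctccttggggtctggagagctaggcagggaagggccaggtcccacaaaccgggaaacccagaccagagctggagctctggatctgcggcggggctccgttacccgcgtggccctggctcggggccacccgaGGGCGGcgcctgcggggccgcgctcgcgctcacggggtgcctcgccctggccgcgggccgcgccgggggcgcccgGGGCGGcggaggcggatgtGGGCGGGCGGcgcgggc
The window of start 1 held 1 FOXO motif and a GC content of 52.0%, near the median of 52.4% of all windows. The window of start 2 held 4 GC boxes, 2 of them overlapping, at a GC content of 78.4%. A match describes the letters and not a bound factor, and gene counts do not tell which start was used.

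*Akt1* had 293, 222 and 278 normalized counts in control replicates 1, 2 and 3 and 152, 137 and 199 in cko replicates 1, 2 and 3. Every cko library lay below every control library, and cko replicate 3, the cko library with muscle RNA at a level similar to the controls, was the nearest to them. Means were 264 ± 37.2 and 163 ± 32.1 (SD, n = 3 each) and the log2 fold change -0.68 (SE 0.13, adjusted p = 1.00e-04, edgeR), and 18.1% of genes tested had a larger absolute value. The call was kept in all 13 alternatives, while the log2 fold change shrank to -0.42 after total-count scaling and to -0.43 with the muscle covariate and was -0.85 without cko replicate 3 (adjusted p 6.38e-08 to 0.0290 over all alternatives).

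*Akt2*, the kinase best known for insulin responses, had 114, 94.3 and 99.6 normalized counts in control and 71.6, 85.5 and 104 in cko libraries. The genotypes overlapped, since cko replicate 3 lay within the control range, and the difference did not pass the test (log2 fold change -0.22, SE 0.16, adjusted p = 0.296, edgeR). Its sign turned after total-count scaling and with the muscle covariate, to 0.047 and 0.058, and the log2 fold change was -0.38 to -0.078 with 1 library left out.

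Among the kinases around AKT, *Pdpk1*, which encodes PDK1, did not pass the test, at 61.7, 61.4 and 71.1 normalized counts in control and 72.4, 69.1 and 52.7 in cko libraries (log2 fold change -0.019, adjusted p = 0.950, edgeR; -0.11 to 0.13 with 1 library left out). The SGK kinases, relatives of AKT that are activated by PDK1 and mTORC2, moved in opposite directions. *Sgk3* had 66.4, 73.1 and 67.8 normalized counts in control and 32.2, 29.3 and 23.3 in cko libraries, less than the lowest control in each (log2 fold change -1.30, SE 0.20, adjusted p = 4.49e-06, edgeR). *Sgk1* was higher in every cko library, with 575, 614 and 596 against 424, 414 and 382 in control (log2 fold change 0.55, SE 0.093, adjusted p = 1.32e-05, edgeR). Both calls were kept in all 13 alternatives. Of the 8 genes tested in the list of PDK1, AKT and SGK kinases, 1 was higher and 2 were lower (2 higher and 2 lower after total-count scaling), with a median log2 fold change of -0.058.

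The mTOR complexes share the kinase mTOR and differ in their scaffolds, Raptor (*Rptor*) in mTORC1 and Rictor in mTORC2. *Mtor* itself had 80.3, 89.0 and 116 normalized counts in control replicates 1, 2 and 3 and 99.0, 86.7 and 110.1 in cko replicates. These ranges overlapped almost fully, and the difference did not pass the test (log2 fold change 0.035, SE 0.15, adjusted p = 0.889, 95% confidence interval -0.28 to 0.35, edgeR). Its sign changed when control replicate 1 or 2 or cko replicate 3 was left out (log2 fold changes -0.059, -0.025 and -0.050), and the highest value with 1 library left out was 0.22.

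*Rptor* had 100.3, 98.5 and 98.7 normalized counts in control and 88.5, 83.2 and 83.0 in cko libraries. Replicates lay close together and the genotypes did not overlap, yet the difference of -0.22 on the log2 scale did not pass the test (SE 0.15, adjusted p = 0.267, edgeR), and it was 0.048 after total-count scaling. *Rictor* had 57.1, 53.0 and 58.6 normalized counts in control and 70.8, 84.3 and 76.0 in cko libraries. All cko libraries lay above all control libraries (log2 fold change 0.44, SE 0.17, adjusted p = 0.0456, edgeR). The call was close to the limit and was kept in 4 of 13 alternatives. It was lost with DESeq2 (adjusted p = 0.148), with the muscle covariate (0.141), without a filter on low counts (0.0594), with a block for the replicate number (0.0510), without control replicate 1, 2 or 3 (0.0808, 0.138 and 0.0877) and without cko replicate 2 or 3 (0.136 and 0.0565; range over all alternatives 0.00115 to 0.148), while the log2 fold change was 0.71 after total-count scaling.

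The promoter windows of both scaffold genes have unlike compositions, with capitals for the same motifs (RefSeq GRCm38.p6, plus strand).
Rictor, chr15:6708131-6708380: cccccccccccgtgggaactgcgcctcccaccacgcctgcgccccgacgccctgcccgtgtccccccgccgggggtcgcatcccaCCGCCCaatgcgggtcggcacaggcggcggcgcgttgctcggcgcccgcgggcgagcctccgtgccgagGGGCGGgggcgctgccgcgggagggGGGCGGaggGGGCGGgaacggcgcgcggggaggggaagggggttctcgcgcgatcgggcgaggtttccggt
Rptor, chr11:119602655-119602904: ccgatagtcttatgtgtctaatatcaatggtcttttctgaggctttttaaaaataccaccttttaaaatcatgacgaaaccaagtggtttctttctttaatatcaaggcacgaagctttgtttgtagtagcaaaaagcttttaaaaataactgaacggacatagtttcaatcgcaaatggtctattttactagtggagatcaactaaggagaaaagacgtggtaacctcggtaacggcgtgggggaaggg
The *Rictor* window held 4 GC boxes at a GC content of 81.2%, and the *Rptor* window none of the motifs at 37.6%. Of the 12 windows of the 8 genes, 5 held a GC box, 1 (*Akt1*) the FOXO motif, 1 (*Rheb*) the E-box and 0 the EGR motif.

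Among the other genes listed with the mTOR complexes, *Deptor*, an inhibitor of both complexes, had 176, 151 and 185 normalized counts in control and 66.8, 84.3 and 73.7 in cko libraries, each of the latter below all controls (log2 fold change -1.20, SE 0.14, adjusted p = 1.12e-08, edgeR). *Prr5*, a subunit of mTORC2 also called Protor-1, had 80.3, 49.8 and 88.7 in control and 37.8, 28.1 and 37.2 in cko libraries (log2 fold change -1.06, SE 0.21, adjusted p = 1.49e-04, edgeR). Both were past the limits of fold and base mean and were called in all 13 alternatives. Some exon bases of *Deptor* (303) lie within *Gm9920* on the other strand, so that its reads are uncertain to that extent. *Mapkap1*, which encodes the mTORC2 subunit Sin1, and *Tti1*, which helps to assemble mTOR complexes, were higher (log2 fold changes 0.43 and 0.55, adjusted p = 0.0112 and 0.0125, edgeR) and kept their calls in 10 and 9 of 13 alternatives, both losing them without control replicate 2. *Mlst8*, a subunit of both complexes, overlapped between genotypes (log2 fold change -0.10, adjusted p = 0.739, and -0.21 to -0.016 with 1 library left out). The list of mTORC1 and mTORC2 subunits also held *Tti1* and *Telo2*, which are not subunits themselves. With *Tti1* among the higher genes, the list had 3 higher and 2 lower genes among 10 tested (also 3 and 2 after total-count scaling). Its median log2 fold change was -0.086.

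**Figure D2:**
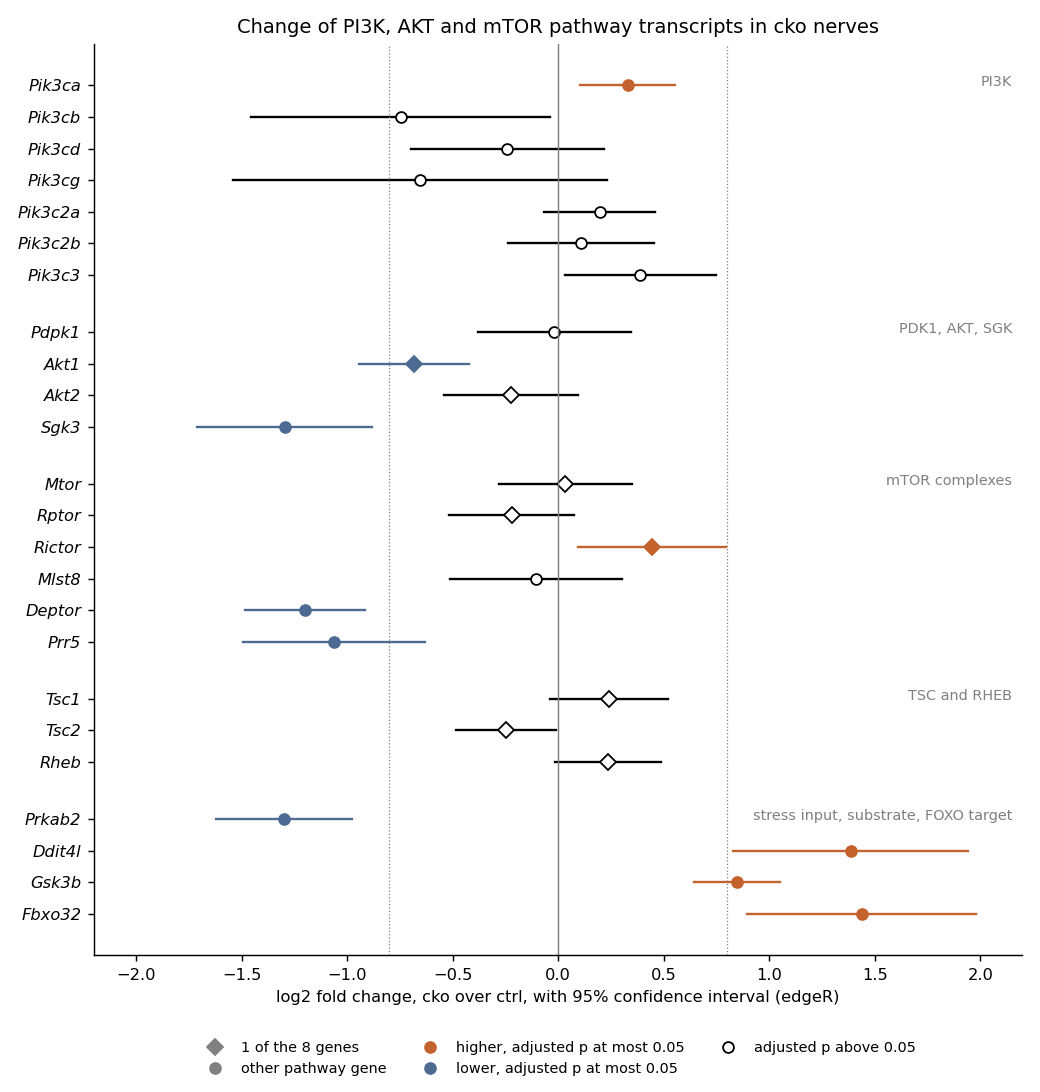
Log2 fold change (horizontal axis, cko over control) with 95% confidence interval for the 8 genes (diamonds) and other pathway genes named by rule (circles), ordered by role. Filled symbols passed an adjusted p of 0.05 in edgeR, dotted lines mark 0.8 in either direction, and *Akt1* (-0.68) and *Rictor* (0.44) are the filled diamonds.

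*Tsc1*, *Tsc2* and *Rheb*, which act upstream of mTORC1, did not pass the test. *Tsc1*, which stabilizes the complex, had 95.7, 112 and 101 normalized counts in control and 123, 111 and 130.3 in cko libraries. The ranges met at their edges, as cko replicate 2 lay just below control replicate 2 (log2 fold change 0.24, SE 0.14, adjusted p = 0.193, edgeR). *Tsc2*, the subunit that makes Rheb hydrolyse GTP, had 213, 236 and 241 in control and 192, 160.5 and 227 in cko libraries. Here cko replicate 3 lay within the control range and the other 2 cko libraries below it (log2 fold change -0.25, SE 0.12, adjusted p = 0.103, edgeR). Exons of *Tsc2* share 578 bases with *Pkd1* on the other strand, and as the strand setting of the counting is not given in the sources used here, its counts are uncertain to that extent.

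*Rheb* had 161, 167 and 183 normalized counts in control replicates 1, 2 and 3 and 214, 233 and 163 in cko replicates. Again cko replicate 3 fell among the controls while the other 2 lay above them (log2 fold change 0.24, SE 0.12, adjusted p = 0.146, edgeR). Without cko replicate 3, *Tsc2* was lower (-0.37, adjusted p = 0.0113, range over all alternatives 0.0113 to 0.897) and *Rheb* higher (0.38, adjusted p = 0.00915, range 0.00128 to 0.863). Leaving out any 1 library gave -0.37 to -0.14 for *Tsc2* and 0.14 to 0.38 for *Rheb*. With the muscle level as a covariate in all 6 libraries their log2 fold changes were -0.079 and -0.050, and after total-count scaling 0.023 and 0.50. *Tbc1d7*, a further subunit of the TSC complex, was lower (log2 fold change -0.65, adjusted p = 0.0250, edgeR) and was the single call among 4 genes tested (2 higher and 0 lower after total-count scaling), kept in 6 of 13 alternatives and lost after total-count scaling at -0.38.

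Ratios of 2 transcripts within a library do not depend on the scaling of libraries. The ratio of *Rptor* to *Rictor* counts was 1.76, 1.86 and 1.69 in control replicates 1, 2 and 3 and 1.25, 0.986 and 1.09 in cko replicates. The ratio of *Akt1* to *Akt2* was 2.57, 2.36 and 2.79 in control and 2.12, 1.60 and 1.91 in cko libraries. For both pairs all cko libraries were below all controls, by -0.68 and -0.46 on the log2 scale. The ratio of *Tsc1* to *Tsc2* was 0.449, 0.475 and 0.420 in control and 0.643, 0.693 and 0.573 in cko libraries, and that of *Mtor* to its inhibitor *Deptor* 0.456, 0.587 and 0.629 and 1.48, 1.03 and 1.49. Both were higher in each cko library, by 0.50 and 1.25 on the log2 scale. *Mtor* to *Rheb* overlapped, with 0.500, 0.532 and 0.635 in control and 0.462, 0.372 and 0.676 in cko libraries. For the 4 pairs without overlap a two-sided exact permutation test gave p = 0.1, the smallest that 3 against 3 libraries allow (0.12 adjusted over the pairs tested), and for *Mtor* to *Rheb* p = 0.5 (adjusted 0.5), so that this test could not give a p under 0.05.

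**Figure D3:**
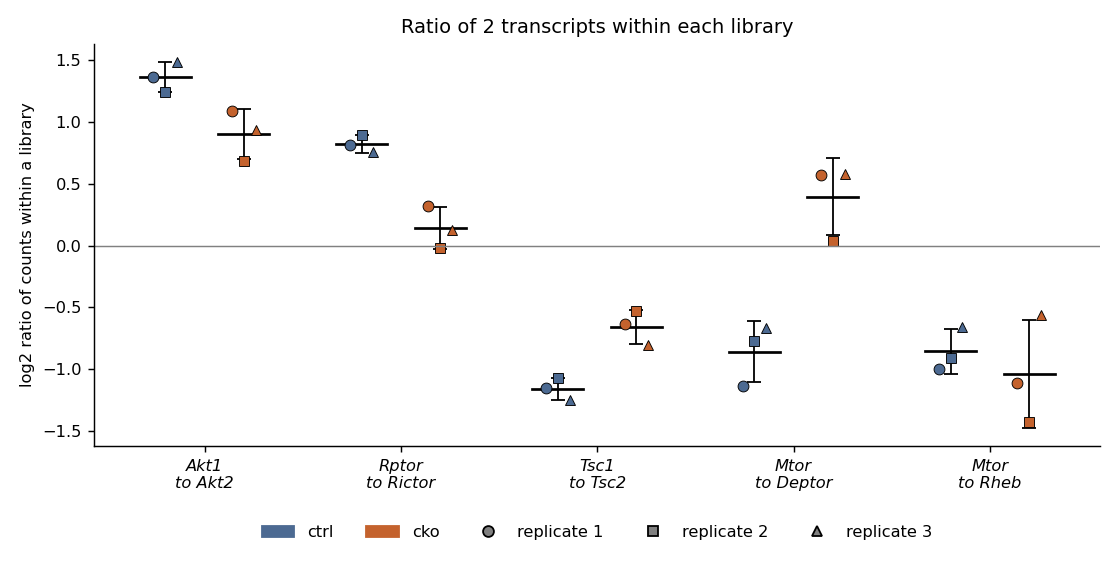
Log2 ratio of the counts of 2 transcripts within each library (vertical axis) for 5 pairs in control (blue) and cko (orange) libraries, with symbols for the replicate number, the mean as a line and the SD as error bar (n = 3). Control and cko libraries are separate for each pair but *Mtor* to *Rheb*.

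Levels per exon length placed *Akt1* first among the 8 genes in control nerves, at 34.4 ± 4.85 RPKM (SD, n = 3), before *Tsc2* with 19.3 ± 1.26 and *Rheb* with 16.4 ± 1.12. *Akt2* followed with 7.68 ± 0.773 RPKM, *Mtor* with 5.02 ± 0.992, *Tsc1* with 4.65 ± 0.380, *Rptor* with 3.93 ± 0.0393 and *Rictor* with 3.22 ± 0.167. In control libraries only *Mtor* and *Tsc1*, among neighbours in this order, had overlapping ranges. In cko nerves *Akt1* (21.2 ± 4.17 RPKM), *Rheb* (19.6 ± 3.50) and *Tsc2* (16.2 ± 2.81) overlapped one another, and the 2 scaffolds had changed places, with 4.42 ± 0.391 RPKM for *Rictor* and 3.36 ± 0.124 for *Rptor* and no overlap between them. *Akt2*, *Tsc1* and *Mtor* followed *Tsc2*, at 6.51 ± 1.21, 5.48 ± 0.433 and 5.20 ± 0.619 RPKM, with overlapping ranges, that of *Mtor* also overlapping *Rictor*. Exon lengths were those of all annotated exons of a gene joined, from 4098 bases for *Akt1* to 13471 for *Rptor*, and isoforms in use may be shorter.

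Nutrient signals reach mTORC1 through the RAG GTPases, where 2 of 25 tested genes were higher and 3 lower, with a median log2 fold change of 0.066 (8 higher and 1 lower after total-count scaling). *Slc3a2* and *Slc7a5*, which encode the 2 chains of a transporter for large neutral amino acids, were both lower. *Slc3a2* had 259, 330.4 and 311 normalized counts in control and 196, 173 and 199 in cko libraries (log2 fold change -0.67, SE 0.11, adjusted p = 7.08e-06, edgeR) and *Slc7a5* 109.6, 123 and 97.1 and 59.6, 89.0 and 68.3 (log2 fold change -0.62, SE 0.16, adjusted p = 0.00304, edgeR). No cko library reached the lowest control for either chain, and the call of *Slc7a5* was lost only after total-count scaling (-0.35). Sestrins, which restrain mTORC1 when leucine is scarce, divided, with *Sesn1* lower (log2 fold change -0.37, adjusted p = 0.00659) and *Sesn3* higher (log2 fold change 1.29, adjusted p = 0.00644, edgeR). The second of these rested on few reads, 7, 10 and 11 in control and 40, 27 and 16 in cko libraries. *Lamtor1*, which anchors the RAG complex to the lysosome, was higher (log2 fold change 0.65, adjusted p = 0.0298, edgeR). *Sesn1*, *Sesn3* and *Lamtor1* kept their calls in 5, 4 and 2 of the 6 fits that left out a library. With the muscle covariate *Sesn3* shrank to 0.40 (edgeR adjusted p = 0.629, range over its alternatives 1.52e-04 to 0.629), and *Sesn1* lost its call with this covariate (-0.36) and after total-count scaling (-0.10).

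Stress and energy inputs to mTORC1 had 1 higher and 1 lower call among 11 genes (4 higher and 1 lower after total-count scaling), with a median log2 fold change of -0.032. *Prkab2*, the beta-2 subunit of the energy sensor AMPK, had 131, 127 and 110.4 normalized counts in control and 49.1, 48.0 and 51.2 in cko libraries (log2 fold change -1.30, SE 0.16, adjusted p = 3.22e-08, edgeR). *Ddit4l*, a stress-induced inhibitor of mTORC1, had 29.3, 12.7 and 15.9 in control and 35.4, 58.6 and 51.2 in cko libraries (log2 fold change 1.39, SE 0.27, adjusted p = 1.32e-04, edgeR). For both genes the genotypes did not overlap, cko replicate 3 lay with the other cko libraries and the call was kept in all 13 alternatives.

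Downstream, the effectors of mTORC1 in translation and autophagy had 0 higher and 2 lower calls among 17 genes tested, with a median log2 fold change of 0.056 (9 higher and 1 lower after total-count scaling). The lower genes were *Ulk2*, a kinase that starts autophagy, with 198, 256 and 243 normalized counts in control and 137, 146 and 136 in cko libraries (log2 fold change -0.75, SE 0.12, adjusted p = 3.44e-06, edgeR), and *Eef2k*, a kinase that slows translation elongation (log2 fold change -0.53, adjusted p = 0.0412). The call of *Ulk2* was kept in all 13 alternatives and that of *Eef2k* in 6. Without a call, the log2 fold change of *Eef2k* was -0.26 after total-count scaling, -0.22 with the muscle covariate and -0.33 without cko replicate 1. *Rps6*, the S6 protein of the ribosome, had 12.0 normalized counts on average, and its value is uncertain, since only uniquely aligned reads were counted and processed copies of this gene exist elsewhere in the genome.

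Among substrates of AKT, 3 of 10 tested genes were higher and 3 were lower, with a median log2 fold change of -0.15 (5 higher and 1 lower after total-count scaling). *Gsk3b*, a kinase of glycogen, beta-catenin and cell fate signalling that AKT inhibits, had 290.2, 290.2 and 255 normalized counts in control and 495, 552 and 455 in cko libraries. Every cko library lay well above the controls (log2 fold change 0.85, SE 0.10, adjusted p = 1.64e-08, edgeR), and its close relative *Gsk3a* was higher by less (log2 fold change 0.37, adjusted p = 0.00988), in 11 of 13 alternatives, losing its call with the muscle covariate (0.31) and without control replicate 1 (0.29). *Gsk3b* was called at an adjusted p of 0.05 in all 13 alternatives, with log2 fold changes between 0.76 and 1.12. *Tbc1d1*, a regulator of glucose transporter traffic, was higher close to the limit (log2 fold change 0.60, adjusted p = 0.0486) and kept its call in 5 of 13 alternatives. *Ndrg1*, mainly a substrate of SGK kinases and abundant in Schwann cells, was lower (log2 fold change -0.54, adjusted p = 4.32e-07), as were the cell cycle inhibitor *Cdkn1b* (log2 fold change -0.39, adjusted p = 7.97e-04) and the transcription factor *Foxo4* (log2 fold change -0.52, adjusted p = 0.0190). Of these, *Ndrg1* was called in all 13, *Cdkn1b* in 12 and *Foxo4* in 7 alternatives. Total-count scaling took the call from *Cdkn1b* (-0.13) and *Foxo4* (-0.25), and the muscle covariate from *Foxo4* (-0.24).

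FOXO factors are held in the cytoplasm when AKT phosphorylates them, and of 12 tested transcripts listed as their targets 2 were higher and 1 was lower, with a median log2 fold change of -0.057 (4 higher and 0 lower after total-count scaling). *Fbxo32*, a ubiquitin ligase subunit known from muscle atrophy, had 10.8, 39.2 and 32.6 normalized counts in control replicates 1, 2 and 3 and 72.4, 99.6 and 69.8 in cko replicates (log2 fold change 1.44, SE 0.26, adjusted p = 2.10e-04, edgeR). All cko libraries lay above all controls. The call was kept in the 12 alternatives that tested the gene, at a log2 fold change of 1.29 with the muscle covariate. The other calls were *Sesn3*, described above, and *Ccng2*, a cyclin linked to cell cycle arrest, which was lower (log2 fold change -0.57, adjusted p = 0.0316) in 6 of 13 alternatives. Its log2 fold change was -0.30 after total-count scaling and -0.38 without cko replicate 3, both without a call, and -1.06 with the muscle covariate.

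Over all 11 lists, 15 of 127 tested genes were higher and 21 were lower in cko nerves, 28.3% together beside 31.6% of all genes tested, and the median log2 fold change was -0.019. After total-count scaling 47 were higher and 12 lower, and of all genes 3766 higher and 880 lower in place of 1756 and 1841, as this scaling raised the median of all genes by 0.27. The count of 36 fell to 23 without control replicate 2 and to 22 with DESeq2 or with the muscle covariate. By the limits of fold and base mean, 3 genes were higher (*Ddit4l*, *Gsk3b* and *Fbxo32*) and 4 lower (*Sgk3*, *Deptor*, *Prr5* and *Prkab2*). Of the 36 calls, 16 were kept under every alternative that tested the gene, 5 higher and 11 lower, and *Akt1* was the single one of the 8 genes among them.

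**Figure D4:**
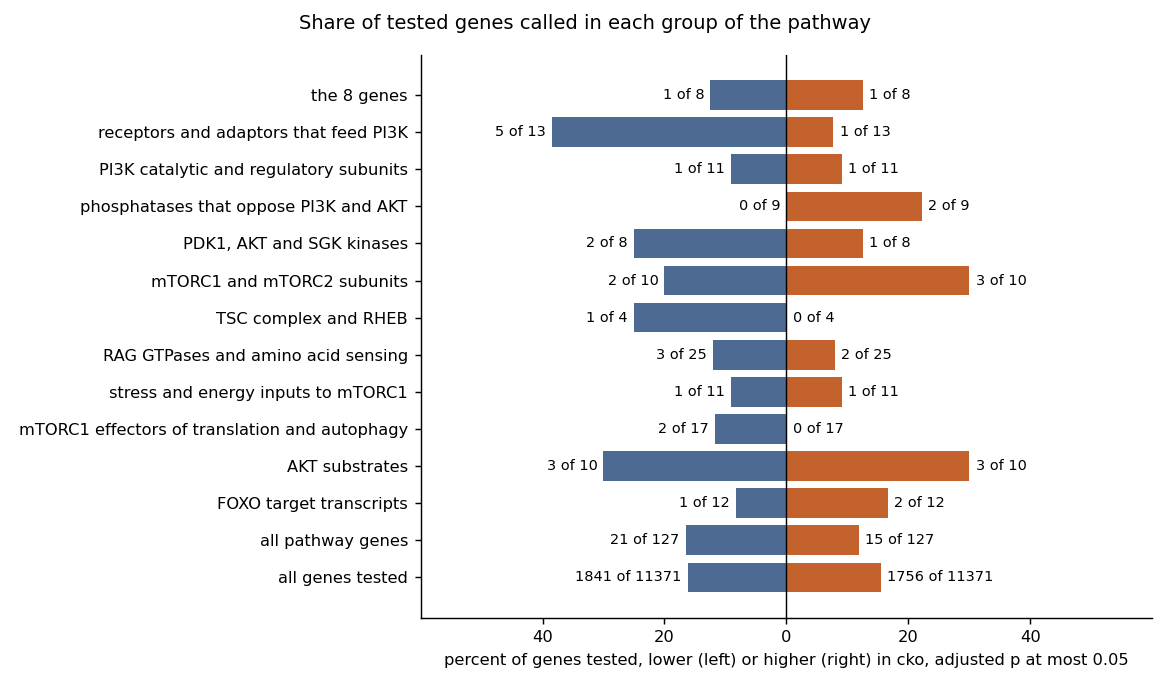
Percentage of tested genes (horizontal axis) that were lower (blue, left) or higher (orange, right) in cko nerves at an adjusted p of 0.05 in edgeR, for the 8 genes, each list of the pathway, all pathway genes and all genes tested, with counts beside the bars. The 127 pathway genes had 21 lower and 15 higher calls, and all 11371 genes 1841 and 1756.

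**Figure D5:**
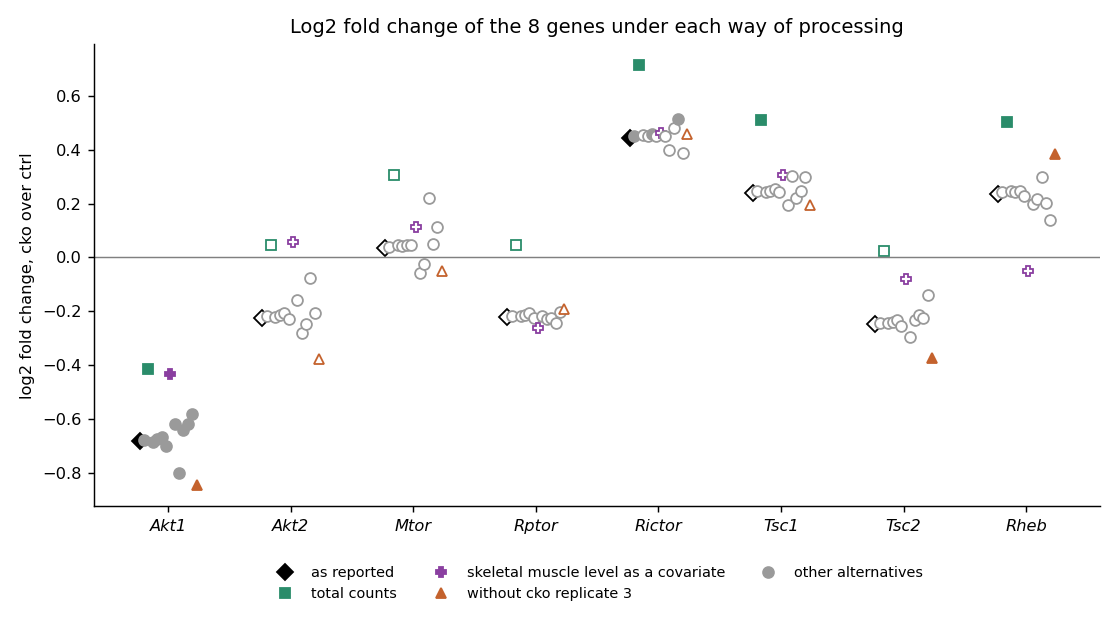
Log2 fold change (vertical axis, cko over control) of the 8 genes as reported and under each of 13 alternatives, with filled symbols for an adjusted p of at most 0.05. *Akt1* stayed below 0 and *Rictor* and *Tsc1* above 0 in each, and the other 5 genes crossed 0 in at least 1.

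The gene whose profile over the 6 libraries came closest to each of the 8 was found by the root mean square difference of mean-centred log2 CPM among 9238 tested genes, all of base mean 20 or more. It was Crtap (0.0419) for *Akt1*, Mylk (0.0559) for *Akt2*, BC023829 (0.0521) for *Mtor*, Dcn (0.0228) for *Rptor*, Cops8 (0.0394) for *Rictor*, Npc1 (0.0165) for *Tsc1*, Ctdsp1 (0.0354) for *Tsc2* and Uspl1 (0.0257) for *Rheb*, with the difference in brackets. Such neighbours were common, as between 17 genes for *Akt1* and 355 for *Rptor* lay within a difference of 0.1.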

How the data were processed

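RNA-Seq counts of 6 sciatic nerve libraries were analysed, 3 per genotype, grouped by the sample labels. The authors deposited raw counts per gene, whole numbers without normalization. Per the methods, reads were aligned to mm9 with TopHat and unique reads counted with HTSeq, whereas the submitters' processing notes name Bowtie2 2.1.0 and both mm9 and mm10. The methods name a directional library kit, the labels a NEB Next Ultra kit. Annotation and strand setting of the counting are not given in the sources used here.

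Testing used edgeR 4.0.16 under R 4.3.3. Low counts were removed by filterByExpr, libraries scaled by TMM, a robust quasi-likelihood model fitted to genotype alone, and p-values adjusted by Benjamini-Hochberg over 11371 genes. The test was checked on simulated data. Replicates differed by more than sampling noise (chi-square per degree of freedom 1.85 to 5.60). CPM and RPKM were computed from these counts, with exon lengths from GENCODE vM1 (mm9); promoter sequences are from RefSeq. Named by rule were the 8 genes, *Rnf40*, *Rnf20*, pathway genes past the limits of fold and base mean, *Pdpk1*, *Mlst8*, the PI3K catalytic subunits and a few others set in advance, the nearest profiles and the leading marker genes. The members and lists were chosen with earlier results of these data known. Alternatives were RLE or total-count scaling, DESeq2 1.42.0, no filter, a minimum of 10 counts throughout, a block for the replicate number, omission of each library in turn, and, chosen after seeing the data, the summed skeletal muscle level as a covariate. *Deptor* had no promoter sequence in the table used.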

Additional observations from a re-analysis of the deposited data

How the results depend on the processing

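*Akt1* kept its direction and its call under all 13 alternatives. For *Rictor* the direction held in all 13, but its adjusted p was above 0.05 with DESeq2 (log2 fold change 0.45), without a filter on low counts (0.45) and with the muscle covariate (0.46), and with the replicate number as a block (0.45). After total-count scaling, which raised the median of all genes by 0.27, *Tsc1* (0.51) and *Rheb* (0.50) became called and the signs of *Akt2* (0.047), *Rptor* (0.048), *Tsc2* (0.023), *Pdpk1* (0.25), *Mlst8* (0.17), *Pik3cd* (0.029), *Erbb2* (0.23) and *Igf1r* (0.12) turned. With the muscle covariate the signs of *Akt2* (0.058), *Rheb* (-0.050), *Pik3cd* (0.0049) and *Erbb2* (0.052) turned; the cause was not tested. No gene passed the test where its sign turned. Leaving out each library gave log2 fold changes of -0.85 to -0.58 for *Akt1*, -0.38 to -0.078 for *Akt2*, -0.059 to 0.22 for *Mtor*, -0.24 to -0.19 for *Rptor*, 0.39 to 0.51 for *Rictor*, 0.20 to 0.30 for *Tsc1*, -0.37 to -0.14 for *Tsc2* and 0.14 to 0.38 for *Rheb*. The same ranges were -0.11 to 0.13 for *Pdpk1*, -0.0014 to 0.24 for *Pik3c2b* and -0.10 to 0.019 for *Erbb2*, whose signs turned, and -0.41 to 0.017 for the log2 ratio of *Mtor* to *Rheb*, which turned without cko replicate 2. The other log2 ratios kept their direction, at -0.55 to -0.35 for *Akt1* to *Akt2*, -0.77 to -0.60 for *Rptor* to *Rictor*, 0.44 to 0.58 for *Tsc1* to *Tsc2* and 1.11 to 1.43 for *Mtor* to *Deptor*. Of the 8 genes, 4 were called after total-count scaling (all genes 4646 of 11371), 1 with DESeq2 (all genes 2459 of 11371), 1 without a filter (all genes 3775 of 17139), 1 with the muscle covariate (all genes 2371 of 11371), and 1 to 3 without 1 library. Of the pathway genes, 59, 22 and 22 were called after total-count scaling, with DESeq2 and with the muscle covariate, and 23 to 39 without 1 library. Calls among all genes numbered 3597, 2371 with the muscle covariate, and 2732 to 3907 without 1 library; by the limits of fold and base mean they were 982 and 926 to 1166. Deviations of same-numbered libraries from their group means correlated at -0.11, -0.046 and -0.071. These values gave no sign of pairing by number but cannot exclude it, and the sample titles give only a replicate number. With the replicate number as a block, 1 of the 8 genes, 34 pathway genes and 3564 genes in all were called. Depth limited *Pik3cb*, *Pik3cg*, *Sesn3* and *Rps6*, which had fewer than 20 normalized counts on average.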
